A study of Mus musculus with 6 samples.

Results

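Axon guidance genes were followed in isolated mouse islets as 1 group of 66 genes among the 48321 gene names of the deposited table. The members were chosen by their names, with earlier results of these data known. They are the ephrins and their Eph receptors, the semaphorins of classes 3 to 7 and the plexins. Slit1 to Slit3, Robo1 to Robo3 and the netrins Ntn1, Ntn4 and Ntn5 also belong. So do the netrin receptors Dcc, Neo1 and Unc5a to Unc5d. Expression was measured by sequencing RNA from islets, the endocrine cell clusters of the pancreas, of wild-type mice of the inbred strain C57BL6 in 2 groups of 3 samples. Mice of the first group ate normal chow. Those of the other group were 3 months old when a diet with 60% of its calories from fat began, and ate it for 4 months. No age is given for the chow mice, and nothing says that the samples of a group came from separate animals, so each p-value below measures the spread between samples, which may be technical.

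Guidance cues are secreted or membrane-bound ligands that steer growing axons and migrating cells by attracting or repelling them, and they are used again in vessels, immune cells and epithelia. Ephrins and Eph receptors signal both ways where cells touch. Semaphorins act through plexins, the class 3 members usually with a neuropilin as co-receptor, while Slits bind Robo receptors and netrins bind Dcc, neogenin and the Unc5 receptors. In islets, ephrin-A and EphA proteins are known to carry signals between beta cells that bear on insulin secretion, and Robo receptors are known to be needed for the arrangement of endocrine cell types within the islet.

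Values are CPM, reads normalised to the depth of each library. The column of chow replicate 2 was the mean of chow replicates 1 and 3 for 48321 of 48321 names, so chow had n = 2 and the high-fat diet n = 3. The step between low values, the worth of 1 read, implied depths of 18.8 to 35.1 M reads per library and puts 3 reads at 0.0856 to 0.16 CPM (a limit for counting error only). Both insulin genes were abundant in every library, Ins2 at 28777 to 45461 CPM. Rn7sk, a small nuclear RNA without a poly(A) tail, was at 6.27 and 13.3 CPM on chow and at 3192 to 3935 CPM after high-fat feeding, and the sample names change prefix with the diet. The part of library type in any result below therefore cannot be told apart from that of diet. Markers of acinar cells, the enzyme-secreting cells around islets, made up 21.9% and 8.5% of the summed CPM in chow and 9.81%, 1.34% and 3.91% on the high-fat diet.

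Of the 66 guidance genes, 62 averaged 0.5 CPM or more across the 5 libraries and were tested. In high-fat islets 6 were higher (Efna4, Efna5, Sema6b, Plxna1, Sema4b and Robo2), or 9.68% of those tested, against 14.9% of all 16939 genes tested. Lower were 10 (Sema3b, Slit2, Epha5, Unc5c, Sema5a, Plxna4, Slit3, Sema4a, Ntn4 and Sema3g), or 16.1%, against 8.78% of all genes. In either direction the 16 calls compare with 23.7% of all genes, so the guidance genes were called about as often as any gene. Calls are limma adjusted p-values below 0.05 (Benjamini-Hochberg over all genes tested), and the log2 fold changes below are on the log2(CPM + 1) scale with standard errors, which understates changes of low genes. The median log2 fold change was -0.13 over the members and 0.05 over all genes.

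The balance between the directions depended on scaling. With median-ratio scaling 5 members were higher and 11 lower, beside 1990 and 1946 of all genes in place of 2524 and 1487. With a reduced library size, a total computed without acinar and insulin genes, the median of all genes moved from 0.05 to -0.29. On that scale 2 members were higher (Efna4 and Efna5) and 27 lower, beside 798 and 5152 of all genes. The deposited columns also differed in summed CPM, and this scaling evens out that difference as well. The part of that difference in the shift, beside that of acinar and insulin genes, was not tested. Less the median of all genes, the members' median was -0.19 with the deposited CPM, -0.17 with median-ratio scaling and -0.14 with the reduced library size. Testing all 48321 names without a minimum level kept the call of Efna4 only (limma adjusted p = 0.00794) and gave adjusted p from 0.0542 to 0.298 for the other 15 called members.

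**Figure D1:**
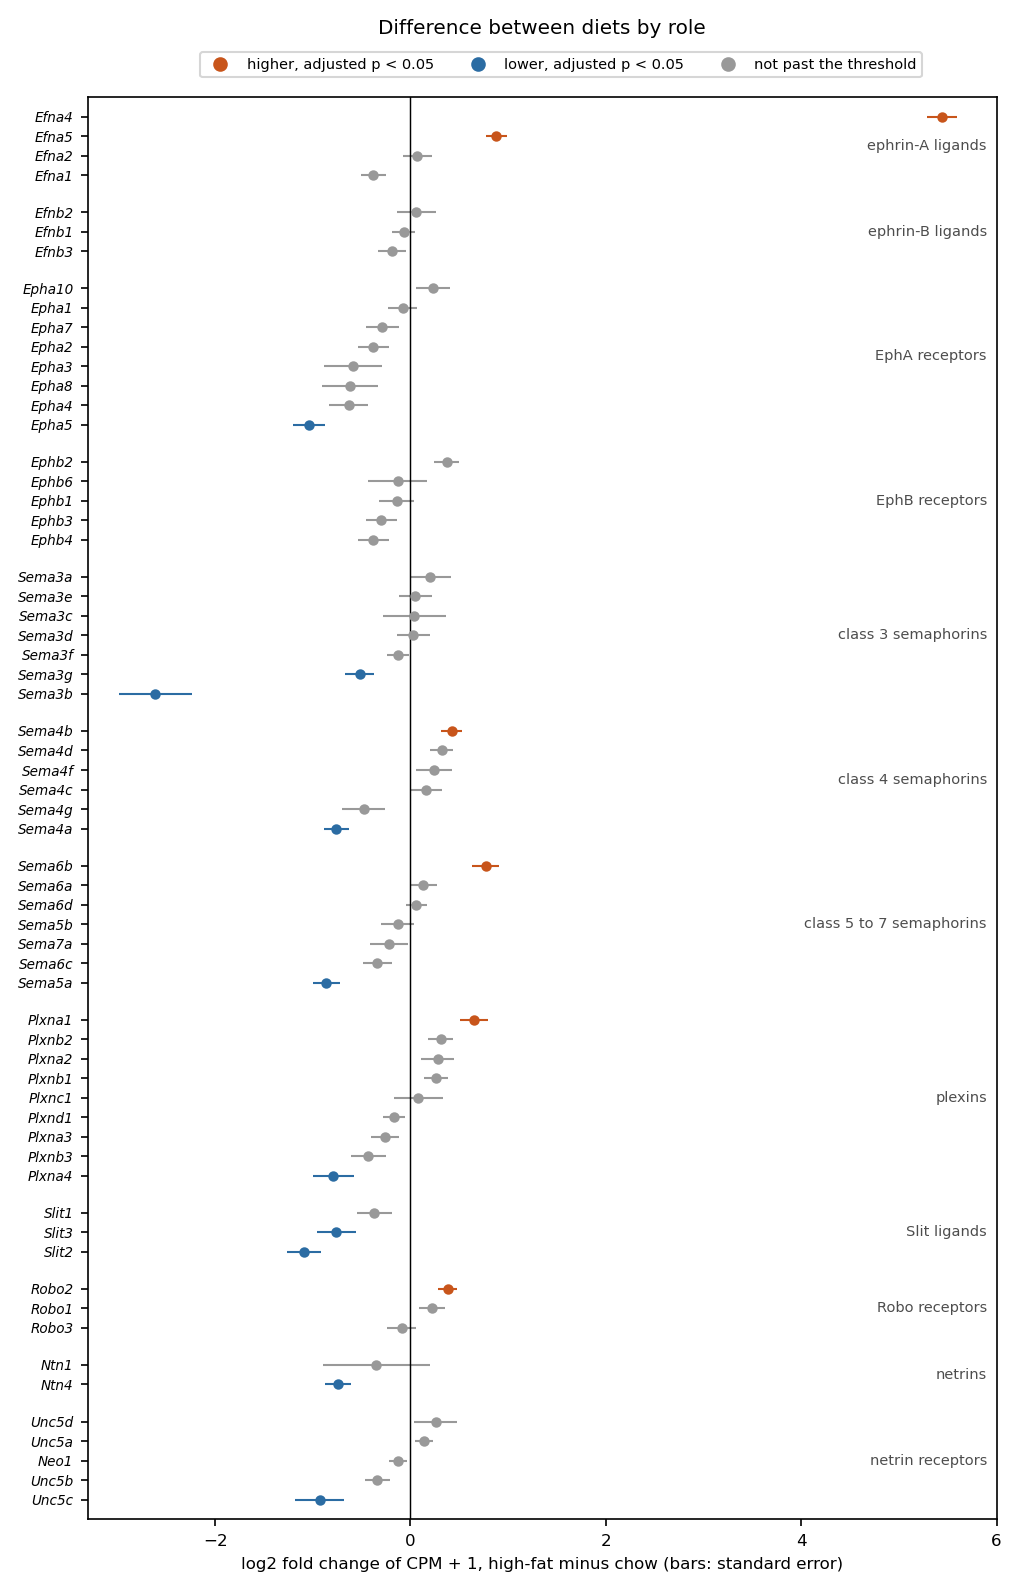
Log2 fold change of CPM + 1 (high-fat minus chow, horizontal axis) for the 62 tested guidance genes, grouped by role, with standard errors as bars. Orange points are the 6 genes past the threshold and higher, blue the 10 past it and lower, and grey the other 46. Efna4 stands far to the right at 5.44, and the 3 Slit genes all lie left of 0.

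**Figure D2:**
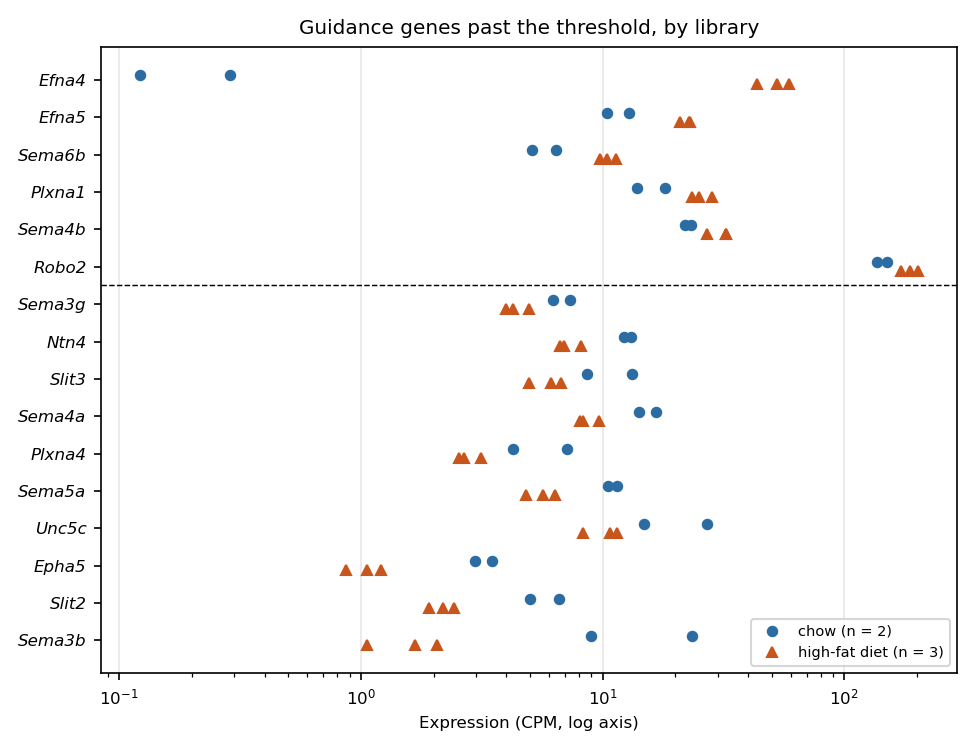
Expression in CPM (log axis) of the 16 guidance genes past the threshold in each library, with circles for the 2 chow libraries and triangles for the 3 high-fat libraries. The 6 genes above the dashed line were higher and the 10 below it lower on the high-fat diet. None of the 16 overlapped between diets, but they were picked by small p-values on these same libraries. Among all members 33 did not overlap, and the share of all genes was not computed.

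Among the ligands, ephrin-A genes held the largest change of the whole group. Efna4, which encodes a lipid-anchored ligand of EphA receptors, was at 0.289 and 0.122 CPM on chow and at 52.9, 43.4 and 58.9 CPM in high-fat replicates 1, 2 and 3. Every high-fat library lay far above both chow libraries, where the values are worth 5.43 and 3 reads. Efna4 rose by 5.44 ± 0.15 on the log2 scale (limma adjusted p = 1.8e-06). Because chow was so low, the size depends on the number added before taking logs: it was 6.85 with 0.25 added and 4.60 with 2 added. Efna4 would not have passed the minimum level on its chow values. In the GENCODE M21 annotation it overlaps 1 antisense gene, 4731419I09Rik, which holds all of the 8.8% of its 31-base words found in any other gene. Strand use in the counting is not given, so reads from the overlap cannot be assigned. That antisense gene measured 1.45 and 0.754 CPM on chow and 1.13, 1.51 and 1.54 CPM after high-fat feeding. Adam15, the next gene beside Efna4 on the same strand, was at 23.2 and 22.4 CPM against 20.3, 22.2 and 21.3 CPM. The part of reads from either gene in the rise of Efna4 was not tested.

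Efna5, the ephrin-A ligand best known from beta-cell contacts, measured 12.9 and 10.4 CPM on chow and 21, 22.8 and 23 CPM after high-fat feeding. It rose by 0.88 ± 0.11, a 1.91-fold higher mean (limma adjusted p = 0.00323), with the high-fat libraries close together. Efna1, induced by inflammatory signals in vessels, was lower in all 3 high-fat libraries (3.87 to 4.13 against 5.37 and 5.55 CPM) without passing the threshold (adjusted p = 0.0745, limma), and passed it with median-ratio scaling (0.0479). Efna2 overlapped between diets (4.69 and 5.54 CPM in chow, 4.72 to 5.86 CPM in high-fat). Efna3 was too low to be tested: listed at 0 and at 0.0405 CPM, the worth of 1 read, in chow, and at 0.441, 0.715 and 0.393 CPM on the high-fat diet, the worth of 10.4, 25.1 and 9.23 reads. Of its 31-base words, 10.48% are shared with Gm15998, an antisense gene listed at no more than 0.116 CPM in any library.

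Of 8 tested EphA receptors, the tyrosine kinases that bind these ligands, 7 had fold changes below 0, with a median of -0.48 (0.05 over all genes). As lower 1 was called, beside 8.78% of all genes. With the reduced library size 5 were, beside 30.3% of all genes. Epha5, a neuronal receptor also reported on beta cells, measured 2.97 and 3.48 CPM on chow and 1.21, 1.06 and 0.868 CPM after high-fat feeding. All 3 high-fat libraries were below both chow libraries, and Epha5 changed by -1.04 ± 0.16, a 3.07-fold lower mean (limma adjusted p = 0.00582). With median-ratio scaling and the reduced library size the EphA median was -0.53 and -0.73, beside -0.01 and -0.29 over all genes. The second scaling moved all genes down, so a median already below 0 staying there shows little. The ephrin-A median, over 4 genes with Efna4 among them, was 0.41 and 0.11. Efna1 was called lower under both scalings. Epha4, which binds ephrins of both classes, was at 3.25 and 2.43 CPM against 1.53, 1.9 and 1.03 CPM (adjusted p = 0.0632, limma). Epha7, per length the most abundant receptor of the class (1.17 CPM per kb over the 5 libraries), was at 10.5 and 16 CPM on chow and 9.9 to 11.2 CPM after high-fat feeding. Its adjusted p of 0.26 (limma) became 0.042 without chow replicate 1. Epha2, an epithelial receptor, was at 4.01 and 5 CPM against 2.89 to 3.58 CPM (adjusted p = 0.122, limma). The other tested receptors of the class, Epha1, Epha3, Epha8 and Epha10, lay between 0.0853 and 6.02 CPM over all libraries, with adjusted p from 0.165 to 0.715 (limma).

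B-class ligands and receptors gave no call with the deposited CPM. With the reduced library size 3 were lower: Efnb1, Efnb3 and Ephb4 (limma adjusted p = 0.0497, 0.027 and 0.00765). That scaling called 30.3% of all genes lower. At an unadjusted p below 0.05 (limma) were 0 of 3 ephrin-B and 2 of 5 EphB genes, but the share of all genes was not computed. Ephrin-B ligands span the membrane. Efnb1 was at 15.7 and 16.7 CPM on chow and 14.1 to 17.6 CPM after high-fat feeding, and Efnb2, a marker of arteries, at 10.1 and 12.1 against 9.79 to 15.5 CPM. The diets overlapped in both. Ephb4, the venous partner of Efnb2, was at 11.2 and 7.88 CPM against 7.51, 6.6 and 6.83 CPM (limma adjusted p = 0.127, and 0.0327 without chow replicate 3). Ephb2 was at 5.83 and 6.93 CPM against 8.21, 8.19 and 9.21 CPM (limma adjusted p = 0.0795). Neither pair of ranges overlapped, with Ephb4 lower and Ephb2 higher on the high-fat diet. Efnb3 was at 8.88 and 9.12 CPM against 6.72 to 8.8 CPM (limma adjusted p = 0.358), and Ephb1, Ephb3 and Ephb6 lay between 0.472 and 3.24 CPM over all libraries (0.223 to 0.768).

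The 250 bases before the RefSeq start of the 2 ephrin-A genes that rose, and of Epha5 and Slit2, a receptor and a ligand among those that fell, are printed to show how unlike the starts of these genes are (RefSeq, GRCm38.p6, written in the direction of the gene). Capitals mark GC boxes, the letters GGGCGG on either strand, which Sp1-type factors bind. The sources used here do not give the build behind the CPM values.
Efna4, chr3:89338029-89338278, minus strand: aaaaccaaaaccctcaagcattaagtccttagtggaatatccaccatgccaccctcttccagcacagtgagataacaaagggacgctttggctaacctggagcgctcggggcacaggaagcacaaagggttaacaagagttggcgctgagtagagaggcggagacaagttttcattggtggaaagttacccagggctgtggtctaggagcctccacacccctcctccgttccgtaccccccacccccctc
Efna5, chr17:62881318-62881567, minus strand: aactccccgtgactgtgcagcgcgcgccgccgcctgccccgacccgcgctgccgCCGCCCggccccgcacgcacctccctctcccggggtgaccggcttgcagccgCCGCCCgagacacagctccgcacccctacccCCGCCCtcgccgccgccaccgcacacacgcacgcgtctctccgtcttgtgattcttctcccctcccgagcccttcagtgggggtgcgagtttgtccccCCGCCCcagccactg
Epha5, chr5:84417383-84417632, minus strand: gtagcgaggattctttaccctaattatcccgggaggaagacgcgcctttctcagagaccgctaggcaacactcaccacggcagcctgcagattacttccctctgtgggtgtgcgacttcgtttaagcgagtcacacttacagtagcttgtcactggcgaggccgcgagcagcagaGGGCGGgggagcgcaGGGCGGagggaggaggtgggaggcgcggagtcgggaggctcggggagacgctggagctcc
Slit2, chr5:47982905-47983154, plus strand: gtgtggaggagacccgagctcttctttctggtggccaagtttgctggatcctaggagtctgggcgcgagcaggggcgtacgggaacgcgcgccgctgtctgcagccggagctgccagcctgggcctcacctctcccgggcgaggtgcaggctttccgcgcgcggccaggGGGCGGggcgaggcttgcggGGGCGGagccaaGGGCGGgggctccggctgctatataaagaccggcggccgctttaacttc

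Efna4 had 0 GC boxes and 7 CG dinucleotides in its 250 bases. Efna5 had 4 and 32, Epha5 2 and 20, and Slit2 3 and 25. Promoters matched for 56 of the 66 members, some with several starts. Of their 72 promoters 70.8% held a GC box, against 32.7% of the 32851 promoters of the table, from 27025 genes. The median number of CG dinucleotides also differed, at 16 for the members and 6 for the table. The part of CG content in the GC box share was not tested. Such a match describes letters in this window and not a bound site. Among called members the share was 5 of 9 promoters for those higher and 9 of 11 for those lower.

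Semaphorins made up 20 of the 66 genes, and all 20 were tested. With the deposited CPM 2 were higher and 4 lower (median 0.03), beside 14.9% and 8.78% of all genes (median 0.05). With median-ratio scaling the counts were again 2 and 4 (median -0.02), beside 11.8% and 11.5% of all genes (median -0.01). With the reduced library size they were 0 and 8 (median -0.29), beside 4.7% and 30.3% of all genes (median -0.29). Among the secreted class 3 members, Sema3b had the deepest fall of all guidance genes. It measured 23.5 and 9 CPM on chow and 2.07, 1.06 and 1.68 CPM after high-fat feeding, a 10.1-fold lower mean. The 2 chow libraries differed from each other by more than any high-fat pair. The log2 change was -2.61 ± 0.37 (limma adjusted p = 0.00446), -1.96 without chow replicate 1 and -3.25 without chow replicate 3, past the threshold in both cases. Sema3g, made by endothelial cells, measured 6.22 and 7.33 CPM against 4.98, 4.25 and 4 CPM, and changed by -0.52 ± 0.15 (limma adjusted p = 0.043). Its call ended with each of the 5 libraries left out (adjusted p from 0.0611 to 0.148) and with an acinar covariate, the mean log2 level of the acinar markers (0.134). Sema3f, per length the most abundant class 3 member over the 5 libraries, overlapped between diets (13.6 and 14.5 CPM against 11.7 to 13.9 CPM). Sema3a, the classical repellent of sensory axons, was scarce, at 0.338 to 1.03 CPM over all libraries. Sema3c, Sema3d and Sema3e overlapped between diets, with limma adjusted p from 0.847 to 0.947.

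Class 4 semaphorins are membrane proteins that signal through B plexins and through immune receptors. Sema4a measured 16.6 and 14.2 CPM on chow and 8.31, 9.63 and 8.08 CPM after high-fat feeding. It changed by -0.76 ± 0.13, a 1.78-fold lower mean (limma adjusted p = 0.00776), and kept its call in each fit with 1 library left out. Sema4b measured 21.9 and 23.2 CPM against 27.1, 32.4 and 32.4 CPM and rose by 0.42 ± 0.11 (limma adjusted p = 0.0306). Its call ended without chow replicate 1 (0.11), high-fat replicate 2 (0.102) or high-fat replicate 3 (0.0994), with the reduced library size (log2 0.03, adjusted p = 0.901), with an acinar covariate (0.132) and with no trend in the variance prior (0.0593). Sema4d, a plexin-B1 ligand, was at 19.9 and 24.8 CPM against 25.8, 28.5 and 29.5 CPM (limma adjusted p = 0.096, and 0.0283 without chow replicate 3). The high-fat libraries were thus higher for Sema4b and Sema4d and lower for Sema4a, with no overlap in any of the 3. Sema4c, Sema4f and Sema4g lay between 3.03 and 10.9 CPM over all libraries, with limma adjusted p from 0.147 to 0.497.

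In classes 5 to 7, Sema5a and Sema6b moved in opposite directions. Sema5a, a transmembrane protein with thrombospondin repeats, measured 11.5 and 10.5 CPM on chow and 4.84, 5.69 and 6.38 CPM after high-fat feeding, a change of -0.86 ± 0.14 (limma adjusted p = 0.00798). Sema6b, a plexin-A ligand, measured 6.44 and 5.09 CPM against 9.78, 10.4 and 11.4 CPM and rose by 0.77 ± 0.14 (limma adjusted p = 0.0101). Both kept their calls in each fit with 1 library left out, but that of Sema6b ended with the reduced library size (0.0656). Sema6d, a plexin-A ligand of the developing heart, overlapped between diets, at 28.5 and 34.8 CPM on chow and 30.1 to 34.8 CPM after high-fat feeding. Sema7a, a lipid-anchored integrin ligand, also overlapped, at 10.2 and 12 CPM against 7.17 to 11.2 CPM. Sema5b, Sema6a and Sema6c lay between 0.306 and 6.65 CPM, with limma adjusted p from 0.144 to 0.613.

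Of the 9 plexins, the receptors of semaphorins, 1 rose and 1 fell with the deposited CPM, beside 14.9% and 8.78% of all genes. With the reduced library size 0 were higher and 4 lower, beside 4.7% and 30.3% of all genes. Plxna1 measured 13.9 and 18.1 CPM on chow and 23.5, 25 and 28.3 CPM after high-fat feeding. It rose by 0.65 ± 0.14, a 1.6-fold higher mean (limma adjusted p = 0.017). An antisense gene holds most of the 8.57% of its 31-base words that are shared with other genes. Plxna4, a neuronal plexin, measured 4.27 and 7.1 CPM against 2.68, 2.56 and 3.14 CPM and changed by -0.79 ± 0.21 (limma adjusted p = 0.0355). Without 1 library the call of Plxna1 ended for chow replicate 1 and high-fat replicates 2 and 3 (adjusted p = 0.0632, 0.0565 and 0.0596, limma), and that of Plxna4 for chow replicate 3 (log2 -0.48, 0.123) and each high-fat replicate (0.0889, 0.102 and 0.075). With an acinar covariate their adjusted p-values were 0.072 and 0.0669, and with the reduced library size that of Plxna1 was 0.256.

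Plxnb2, a receptor of class 4 semaphorins, had the highest level per length of all 66 genes (37.3 CPM per kb over the 5 libraries). It measured 223 and 282 CPM on chow and 287, 326 and 323 CPM after high-fat feeding, without overlap but not past the threshold (0.31 ± 0.13, limma adjusted p = 0.134). Plxna2 measured 41.7 and 63.6 CPM against 59.8, 61 and 68.3 CPM, and the diets overlapped (limma adjusted p = 0.26). Chow replicate 1 was the low library in both genes and in Plxnb1 (39.2 CPM against 49 to 56 CPM in the others). Without chow replicate 3 all 3 passed the threshold as higher, with limma adjusted p of 0.0307, 0.0123 and 0.0317. Plxnd1, a vascular receptor of Sema3e, was at 37.1 and 33.4 CPM against 34, 27.6 and 32.3 CPM (limma adjusted p = 0.3). Plxna3, Plxnb3 and Plxnc1 lay between 0.262 and 21.7 CPM, with limma adjusted p from 0.131 to 0.848.

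Of the Slit ligands 2 of 3 fell, and of the Robo receptors, which bind them, 1 of 3 rose (0 with median-ratio scaling or the reduced library size). With the deposited CPM 8.78% of all genes fell and 14.9% rose, and with those 2 scalings 11.8% and 4.7% rose. Slit2, a large secreted repellent, measured 5.01 and 6.61 CPM on chow and 1.91, 2.19 and 2.42 CPM after high-fat feeding. It changed by -1.09 ± 0.17, a 2.67-fold lower mean (limma adjusted p = 0.00592), and kept its call in each fit with 1 library left out. Slit3 measured 8.61 and 13.3 CPM against 4.95, 6.15 and 6.73 CPM and changed by -0.76 ± 0.20 (limma adjusted p = 0.0355). The high-fat libraries lay below both chow libraries for both ligands. The call of Slit3 ended without chow replicate 3 (log2 -0.48, adjusted p = 0.125) and without high-fat replicate 1, 2 or 3 (0.0926, 0.088 and 0.0672). Slit1 was scarce, at 0.64 and 1.02 CPM against 0.255, 0.517 and 0.468 CPM (limma adjusted p = 0.169).

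Robo2, an islet receptor of Slits, measured 136 and 150 CPM on chow and 172, 187 and 202 CPM after high-fat feeding. It rose by 0.38 ± 0.10 (limma adjusted p = 0.0389), the smallest change among the 16 calls. That direction rested on the scale: Robo2 was at -0.02 with the reduced library size (adjusted p = 0.918) and lost its call with median-ratio scaling (0.0575), with an acinar covariate (0.135), with no trend in the variance prior (0.0677) and without chow replicate 1 or high-fat replicate 1, 2 or 3 (0.128, 0.0624, 0.115 and 0.123). Robo1 was at 40.8 and 40.9 CPM against 39.7, 53.4 and 51.4 CPM, with high-fat replicate 1 beside the chow libraries (limma adjusted p = 0.267). Robo3 stayed under 1 CPM in every library.

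Markers of several cell types differed between the diets too. Their calls stand beside 14.9% of all genes called higher and 8.78% called lower. Fibroblast and pericyte markers summed to 351 and 272 CPM on chow and to 156, 183 and 194 CPM after high-fat feeding, with 5 of 9 called lower and 0 higher. Neuron markers summed to 187 and 216 CPM against 103, 116 and 115 CPM, with 5 of 6 called lower. The calls ran from the neuropeptide Vip (38.4 and 39.9 CPM against 1.6, 1.6 and 2.17 CPM) to Elavl4 (29.6 and 33.4 CPM against 23.2, 24.8 and 21.2 CPM). Tubb3 was not called (19.6 and 22.6 CPM against 18.9, 19.1 and 24.4 CPM). Snap25 was the largest part of each sum (87.9 and 103 CPM against 55.8, 68.2 and 63.9 CPM). Ductal markers summed to 299 and 234 CPM against 207, 176 and 197 CPM, with 3 of 8 lower and 1 higher. Endothelial markers were also lower in sum in all 3 high-fat libraries, at 333 and 384 CPM against 268, 329 and 318 CPM, with 2 of 8 called lower. Of the Schwann cell markers 3 of 5 were called lower and 1 higher, with sums of 17 and 19.4 CPM against 17, 19.1 and 13.2 CPM that overlapped. On the higher side, beta-cell markers summed to 57187 and 79512 CPM against 87287, 95116 and 87056 CPM, with 3 of 8 called higher, and alpha-cell markers to 10665 and 2553 CPM against 11553, 12766 and 13258 CPM, with 1 of 5 called higher. None of the listed markers was at 0 in all 5 libraries. The part of these cells in the rise or fall of any member was not tested, and in bulk RNA fewer cells of a type cannot be told from less RNA per cell.

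Netrins and their receptors gave 2 lower genes, beside 8.78% of all genes. With the reduced library size they gave 4, beside 30.3% of all genes. Ntn4, a basement membrane netrin, measured 13.1 and 12.3 CPM on chow and 6.9, 8.12 and 6.68 CPM after high-fat feeding. It changed by -0.74 ± 0.13, a 1.75-fold lower mean (limma adjusted p = 0.00867), and kept its call in each fit with 1 library left out. Unc5c, a receptor for repulsion by netrin, measured 14.8 and 27.1 CPM against 8.29, 10.7 and 11.5 CPM and changed by -0.93 ± 0.25 (limma adjusted p = 0.0373). Chow replicate 3 set much of that difference: without it the log2 change was -0.51 (adjusted p = 0.102), and the call also ended without high-fat replicate 1, 2 or 3 (0.0975, 0.0891 and 0.0742) and with no trend in the variance prior (0.0594).

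Ntn1, the founding attractant of the family, varied within each diet more than between them, at 17.1 and 7.51 CPM on chow and 17.5, 3.9 and 9.24 CPM after high-fat feeding (limma adjusted p = 0.672). The libraries with the highest acinar shares, chow replicate 1 and high-fat replicate 1, were also the highest for Ntn1, and high-fat replicate 2 was the lowest in both. In between, the order did not hold: chow replicate 3 had the larger acinar share (8.5% against 3.91%) but less Ntn1 than high-fat replicate 3. With an acinar covariate, Ntn1 was higher on the high-fat diet (log2 0.60, limma adjusted p = 0.0395). That fit had only 5 libraries for both diet and acinar level, and the part of acinar cells in Ntn1 was not tested. Neo1, the abundant receptor of netrins and repulsive guidance molecules, measured 87.9 and 101 CPM on chow and 81.2, 86.1 and 89.9 CPM after high-fat feeding, with overlap. Unc5a was at 37 and 36.1 CPM against 37.4, 40.8 and 43.5 CPM (limma adjusted p = 0.282), and Unc5b, a vascular receptor, at 14.6 and 14.9 CPM against 10.8, 13.4 and 10.4 CPM (0.099). Dcc, the main attractive netrin receptor of neurons, was at 0.299 to 0.58 CPM, too low to be tested. So were Ntn5 (at most 0.0575 CPM, worth 2.02 reads) and Epha6 (at most 0.211 CPM).

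**Figure D3:**
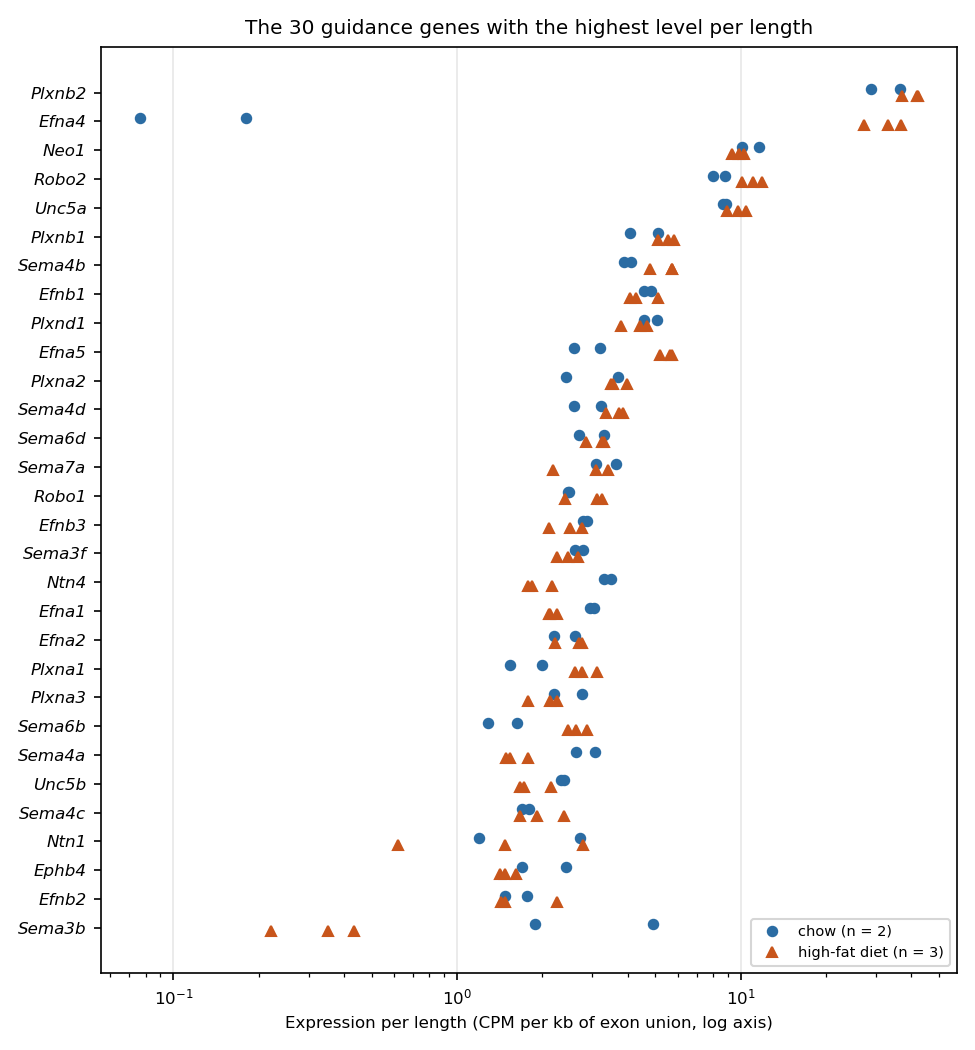
Expression per length (CPM per kb of exon union, log axis) of the 30 guidance genes with the highest mean over the 5 libraries, with circles for the 2 chow and triangles for the 3 high-fat libraries. Plxnb2 leads, and Efna4 is second in the mean through its high-fat libraries alone.

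Per kb of annotated exon, mean levels of the members ran from 37.3 CPM for Plxnb2 down to 0.00885 for Ntn5. In chow the order was Plxnb2 (32.7 CPM per kb), Neo1 (10.8), Unc5a (8.77) and Robo2 (8.42), and the last pair overlapped between libraries per kb. On the high-fat diet it was Plxnb2 (40.4), Efna4 (32.4), Robo2 (11), Neo1 (9.84) and Unc5a (9.73), of which the last 3 overlapped between libraries. By that measure Efna4 went from rank 56 to rank 2 of 66. Sema3b went from rank 9 to rank 45, and Epha5 from rank 50 to rank 61. The summed length of annotated exons had a median of 10.09 kb (3.74 to 25.43 kb) for the genes called lower. It was 4.84 kb (1.60 to 16.98 kb) for those called higher and 6.93 kb over all 62 tested. The 10.09 kb falls in a gap between Slit3 (6.07 kb) and Plxna4 (14.10 kb). Ntn4, Sema3g, Sema3b and Sema4a were shorter than Slit3, so the genes called lower were not all long. The part of length in the calls was not tested.

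Other genes of these pathways were taken from a list with 82 rows in the table, of which 79 were tested. In high-fat islets 13 of the 79 were higher and 8 lower, shares near the 14.9% and 8.78% of all genes, with a median of 0.08. Median-ratio scaling gave 11 and 11, beside 11.8% and 11.5% of all genes. The reduced library size gave 4 and 31, beside 4.7% and 30.3% of all genes. Nrp1, the co-receptor of class 3 semaphorins and of vascular growth factor, measured 86.1 and 89.9 CPM on chow and 48.2, 53.4 and 53.2 CPM after high-fat feeding (-0.76 ± 0.08, limma adjusted p = 0.00172). Nrp2 was at 9.67 and 11.4 CPM against 8.02 to 10 CPM, with overlap (adjusted p = 0.263, limma). The adhesion molecules Chl1 and L1cam, which join semaphorin receptor complexes, were also lower, Chl1 at 10.4 and 14.9 against 2.24, 2.9 and 3.83 CPM (limma adjusted p = 0.00269) and L1cam at 9.74 and 14.7 against 5.29, 4.66 and 6.78 CPM (0.0174). L1cam lost its call without chow replicate 3 (0.0557) or high-fat replicates 1 or 2 (0.053 and 0.0585). With no minimum level neither was past the threshold (0.0757 for Chl1 and 0.18 for L1cam).

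The collapsin response mediators, cytosolic proteins that act on microtubules downstream of Sema3a, split. Dpysl3 measured 11 and 12.6 CPM on chow and 3873, 3550 and 1719 CPM after high-fat feeding, a rise of 7.81 ± 0.33 (limma adjusted p = 1.5e-05). Dpysl2 was at 35.6 and 36.4 CPM against 194, 217 and 206 CPM (2.48 ± 0.08, limma adjusted p = 4.61e-06). Dpysl5 went the other way, at 4.57 and 5.8 CPM against 2.04, 1.53 and 1.92 CPM (-1.12 ± 0.17, limma adjusted p = 0.00541), while Crmp1 (17.3 and 20.8 against 23.2 to 29.9 CPM) and Dpysl4 (0.567 to 1.68 CPM in all libraries) did not pass the threshold (0.0716 and 0.227). The 3 calls kept their sign under every scaling tried, but that of Dpysl5 was lost with no minimum level (0.0642).

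Among adaptors, GTPase regulators and kinases 11 of 52 rose and 3 fell with the deposited CPM, beside 14.9% and 8.78% of all genes. Median-ratio scaling gave 9 higher and 5 lower, beside 11.8% and 11.5% of all genes. The reduced library size gave 2 higher and 17 lower, beside 4.7% and 30.3% of all genes. Rras, a small GTPase that plexins inactivate, measured 4.88 and 5.88 CPM on chow and 31.2, 28.9 and 35.1 CPM after high-fat feeding (2.36 ± 0.12, limma adjusted p = 4.39e-05). Higher as well were the kinases Abl2 (1.12 ± 0.19), Pak3 (0.76 ± 0.10), Limk1 (0.63 ± 0.12) and Src (0.42 ± 0.08) and the plexin-A effector Farp2 (0.70 ± 0.10), with limma adjusted p from 0.00287 to 0.0136. With the reduced library size, Rras and Abl2 kept their calls, and the adjusted p was 0.077 for Pak3, 0.191 for Limk1, 0.871 for Src and 0.115 for Farp2. Limk1 and Src also lost theirs with an acinar covariate (0.0536 and 0.0705) and without high-fat replicate 2 (0.0509 and 0.0595). With no minimum level the adjusted p was 0.0586 for Pak3, 0.152 for Abl2 and 0.0695 for Limk1.

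**Figure D4:**
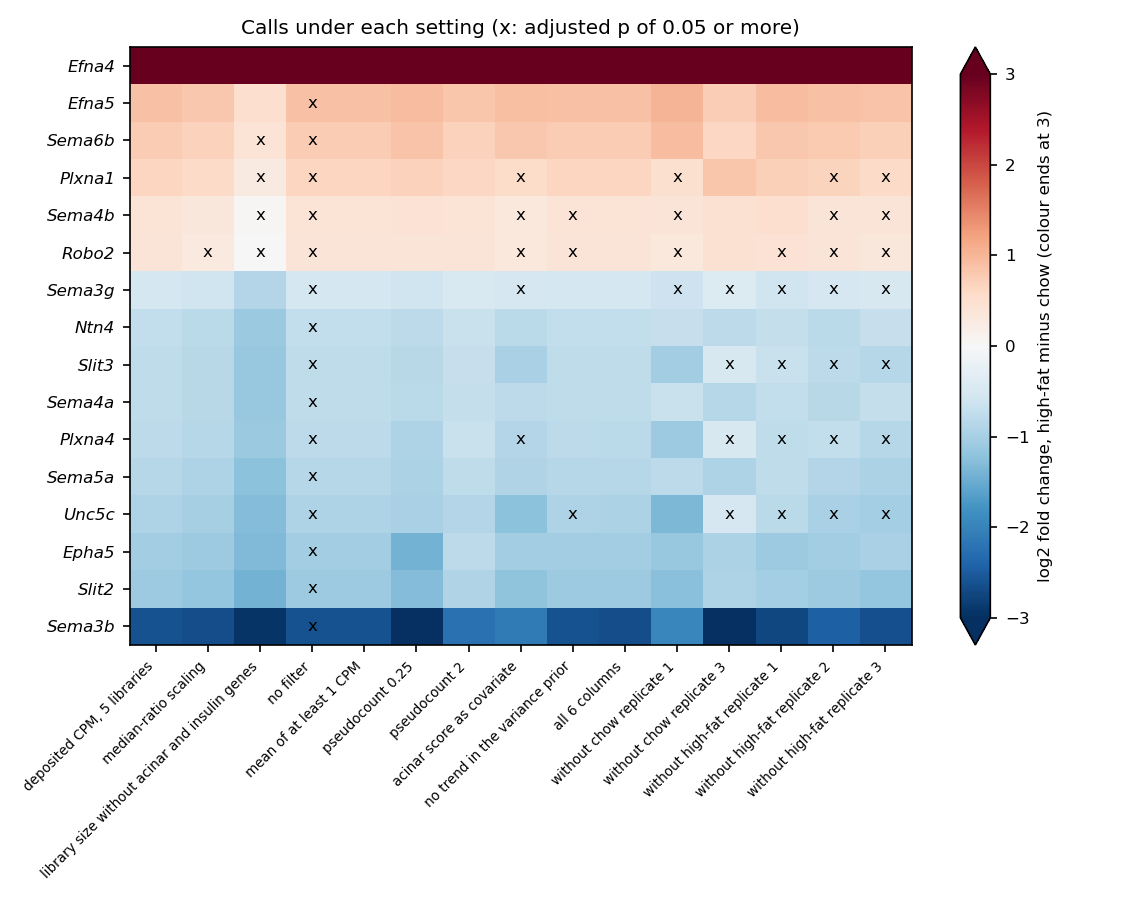
Log2 fold change (colour, high-fat minus chow, ending at 3) of the 16 called guidance genes under the fit of the 5 libraries and 14 alternatives, with x where the adjusted p was 0.05 or more. Efna4 holds in all 14. Efna5, Epha5, Ntn4, Sema3b, Sema4a, Sema5a and Slit2 hold in 13 of 14, and Robo2 in 5, with its sign reversed (-0.02) with the reduced library size.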

How the data were processed

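The authors deposited 1 table of 48321 gene names by 6 columns, and the submitters' processing notes name Partek as a tool. The sources used here do not give the aligner, genome build, strand use or library preparation. The deposited signal was read as CPM plus 1, since every column starts at exactly 1 and low values less 1 pile up on multiples of 1 step per column. Only 64.7% to 70.1% of low values (up to 20 reads) fell within 0.1 of a whole read, so no reads were recovered and no count model was used. The 1 was subtracted, chow replicate 2 was left out as an average, and limma 3.58.1 in R 4.3.3 was fitted to log2(CPM + 1) for the 16939 genes that averaged 0.5 CPM or more, letting the variance prior follow the mean, after a test on simulated data.

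Members and lists were chosen with earlier results of these data known. Named were all members past the threshold, the 2 most abundant of each role, 12 fixed members, both neuropilins, the collapsin response mediators and the 8 other pathway genes with the smallest p; members named outside this rule were chosen after their values were seen. Lengths, overlaps and 31-base words came from GENCODE M21. Alternatives were 2 other scalings, 2 other minimum levels, 2 other pseudocounts, an acinar covariate, no variance trend, all 6 columns and each library left out.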

Additional observations from a re-analysis of the deposited data

How the results depend on the processing

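Of the 14 alternatives, only the 2 other scalings and the acinar covariate could reverse a sign, as none of the 16 called guidance genes overlapped between diets. In these, 15 of the 16 kept their sign. The exception was Robo2, at -0.02 with the reduced library size (computed without acinar and insulin genes). The counts were 6 higher and 10 lower. They became 2 and 27 with that library size, beside 4.7% and 30.3% of all genes. With no minimum level they were 1 and 0, beside 1.15% and 0.772% of all genes called. In that fit 22 of the 66 members had an unadjusted p below 0.05 (limma), but the share of all genes was not computed. With all 6 columns, the averaged one counted as a chow library, 9 members were higher and 17 lower. These are 14.5% and 27.4% of those tested, beside 25% and 16.7% of all genes. Leaving out 1 library gave 3 to 10 higher and 6 to 10 lower, while the shares of all genes ran from 6.91% to 17.5% and from 4.04% to 8.32%. The highest count of higher genes came without chow replicate 3 (10), and 3 came without chow replicate 1, high-fat replicate 2 or high-fat replicate 3. Lower counts of 6 came without each high-fat replicate. Where chow was left with 1 library, it was assumed to vary like the others. The cause of these shifts was not tested. The labels give no replicate numbers shared by the diets, so no pairing was fitted. Efna3, Epha6, Ntn5 and Dcc missed the minimum level. Efna3, Epha6 and Ntn5 had libraries under 3 reads, and Dcc had 7.1 reads or more in each.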
